A study of Mus musculus with 8 samples.

Results

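The genes described here encode the collagens, laminins, nidogens and elastic fibre proteins of the extracellular matrix, together with the lysyl oxidases that cross-link it, the matrix metalloproteinases (MMP) and ADAMTS proteases that cut it, and the tissue inhibitors of metalloproteinases (Timp). They were taken by gene symbol from the deposited table, and 102 of the 18193 genes in that table belonged to these families. Where a gene had several probe sets, which are the groups of short oligonucleotides that report a transcript on an Affymetrix array, the probe set with the highest mean log2 signal over all 8 arrays was used. Transcript levels were measured in NS5 cells, a line of neural stem cells that the labels trace to mouse brain at stage E11.5. All cells were first plated on poly-ornithine and laminin with FGF2 and EGF for 24 h, and were then kept without growth factors for 4 h. For the following 48 h they received FGF2 alone, Ethanol and FGF2, TGF-beta1 alone, or Ethanol and TGF-beta1, with ethanol at 400 mg/dl and 2 arrays in each of these 4 groups. Each growth factor was dosed at 10 ng/ul by the labels, and the data cannot check that unit. As laminin coated the dishes of every group, the cells were in contact with a matrix protein that none of these transcripts measures. The labels name 1 cell line and do not say whether the arrays of a group came from separate cultures, so each p-value below measures only the spread between these samples, which may be technical.

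Collagens are triple helices of alpha chains. Fibrillar collagens form the tensile fibres of connective tissue, fibril-associated collagens decorate them, and type IV collagen, laminin and nidogen build the basement membrane, the sheet on which neuroepithelial cells rest at the pial surface and around vessels. In the embryonic brain, neural stem cells bind laminin through integrins and dystroglycan, while fibrillar collagens are made mainly in the meninges and vessel walls. TGF-beta is known in many cell types as an inducer of matrix genes, and FGF2 is a mitogen of neural stem cells.

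The arrays reported a linear signal in arbitrary units, and tests used log2(signal + 23.66). Of the 102 genes, 44 passed the filter on mean signal, which kept 10916 genes in all. The other 58 lay under it, and 50 of those did not reach a signal of 100 on any array, where the median signal of an array over all probe sets ran from 50.6 to 86.5. Just inside the filter lay Col3a1, with a mean transformed value of 6.41, Adamts18 (6.48) and Mmp17 (6.65). Just outside it lay Mmp20 (6.37), Timp3 (6.34) and Fbln2 (6.30). Adamts18 passed only through the FGF2 arrays, and Col3a1 fell under the filter when either of the ethanol groups was left out, so 2 of the 44 genes owed their place to a group in which they were high. The tested genes comprised 6 of 11 fibrillar collagens, 3 of 8 basement membrane collagens, 5 of 9 fibril-associated collagens, 1 of 4 transmembrane collagens, 5 of 10 laminins, 1 of 2 nidogens, 4 of 9 elastic fibre proteins, 1 of 4 lysyl oxidases, 5 of 16 MMPs, 11 of 15 ADAMTS proteases and 2 of 4 Timps. None passed of the 7 genes in a group of beaded filament and anchoring collagens with Col26a1 added, and none of the 3 network-forming collagens. Loxl2, Fbn1 and Mmp15 had no probe set with only their symbol and were not measured here. The counts therefore cover measured genes and not whole families.

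The composition of the matrix transcripts above the filter is itself a description of these cells. Among the genes that make basement membrane, Col4a1 and Col4a2 (the chains of the common type IV collagen), Lama1 and Lama5 (laminin alpha chains), Lamb1 and Lamb2 (beta chains), Lamc1 (the gamma chain shared by most laminins) and Nid2 (a nidogen, which bridges laminin and type IV collagen) passed. Col18a1 (the source of endostatin), Lama2, Lama4 and Nid1 did not. Of type I collagen, Col1a1 passed and its partner chain Col1a2 did not, with signals of 32.5 to 73.9. Col5a2, Col6a1, Col6a2, Lox, Loxl1, Loxl4, Fbln2, Fbln5, Mfap2, Mfap5, Mmp2, Mmp9, Mmp14, Timp1 and Timp3 also lay under the filter. Without detection calls, a signal under the filter is a weak reading of a probe set and does not show that the transcript was missing.

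Each of 2 ethanol arrays stood with the other growth factor. Fn1, which encodes fibronectin and is not a member of these families, read 119.7 and 139 with FGF2 against 3015 and 4109 with TGF-beta1. Under the label Ethanol and FGF2 it read 6828 (replicate 1) and 116 (replicate 2), and under Ethanol and TGF-beta1 it read 124 (replicate 1) and 8226 (replicate 2). The matrix genes divided these arrays in the same way. Of the 9 tested members that differed at least 2-fold between FGF2 and TGF-beta1 without ethanol and did not overlap, 7 lay on the TGF-beta1 side of the midpoint on Ethanol and FGF2 replicate 1 and 1 on its replicate 2. On Ethanol and TGF-beta1 the counts were 1 of 9 for replicate 1 and 8 of 9 for replicate 2. The median position, with 0 at the FGF2 mean and 1 at the TGF-beta1 mean, was 0.76 and -0.12 on the Ethanol and FGF2 arrays and -0.06 and 1.14 on the Ethanol and TGF-beta1 arrays. The labels were kept as given. Growth factor differences without ethanol do not use the ethanol arrays except through the shared spread, so leaving out both replicate 1 ethanol arrays, the doubted arrays, left every such fold change as it was. Of the 43 members then tested (Col3a1 fell under the filter), Mfap4 passed there and the other 42 did not, with adjusted p from 0.155 to 0.999. As these arrays were doubted on Fn1 and on the 9 members, Mfap4 among them, the pass of Mfap4 without them is no separate support. For the ethanol differences the values without both arrays stand beside the main members described for them.

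**Figure D1:**
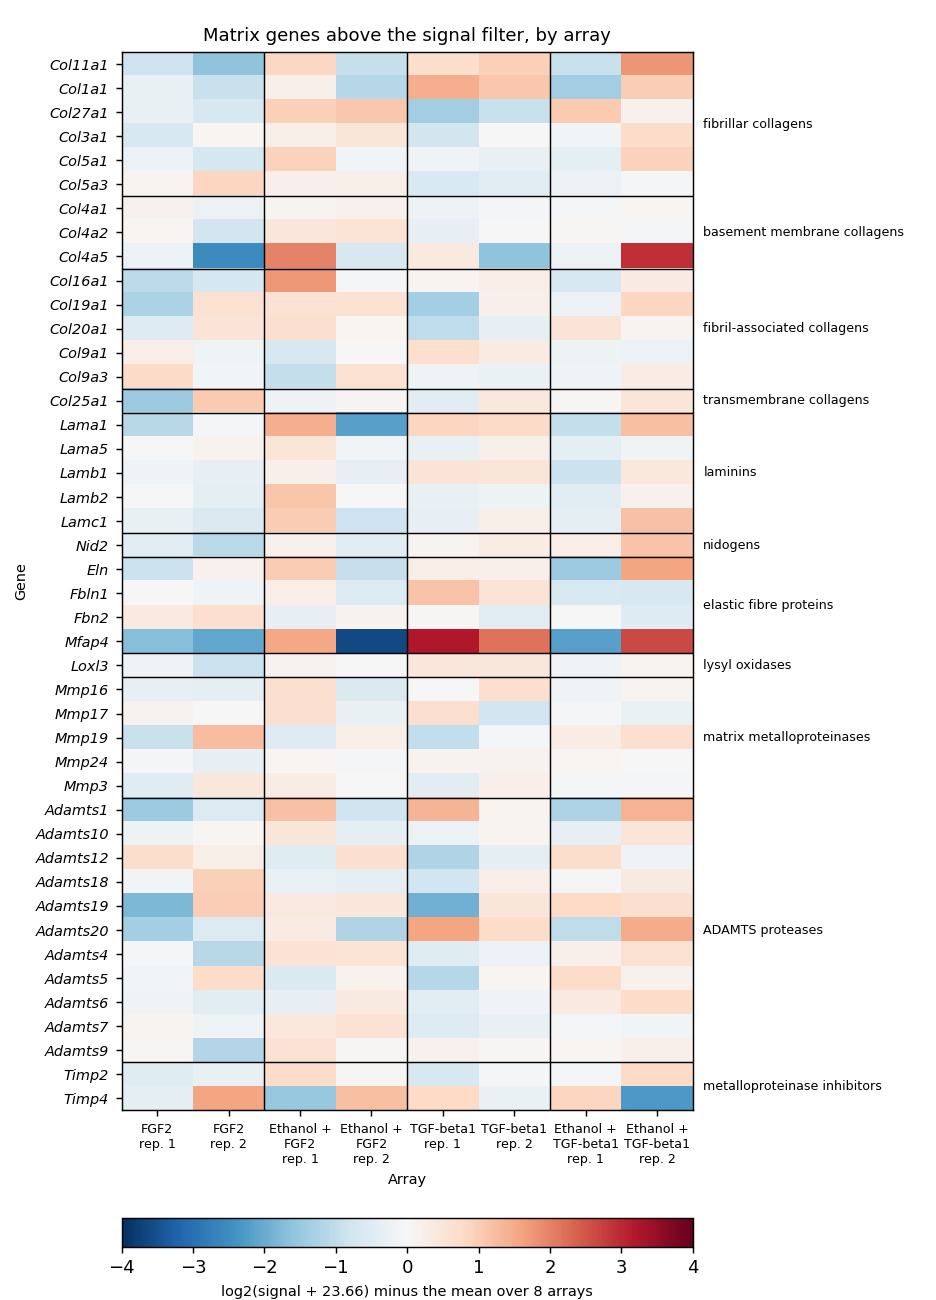
The 44 matrix genes above the signal filter (vertical axis, grouped by role) on each of the 8 arrays (horizontal axis), with colour showing log2(signal + 23.66) minus that gene's mean over the 8 arrays. Mfap4 was high on both TGF-beta1 arrays, Ethanol and FGF2 replicate 1 and Ethanol and TGF-beta1 replicate 2, and low on the other 4, whereas Col27a1 was high on all 4 ethanol arrays.

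The first comparison asked how matrix transcripts differed between the growth factors. Without ethanol, 7 of the 44 tested genes were at least 2-fold higher in TGF-beta1 than in FGF2, where 3.32% of all genes tested were, and 2 were at least 2-fold lower, where 1.16% were. As shares of the tested members these were 15.9% and 4.55%. The 7 were Mfap4, Adamts20, Col11a1, Col1a1, Adamts1, Lama1 and Col16a1, and the lower pair was Adamts12 and Col5a3. The arrays of the groups did not overlap for 16 genes higher in TGF-beta1 (background 20.4%) and for 6 lower (background 15.8%). None of these differences passed the test of limma, a linear model with a spread shared across genes, after Benjamini-Hochberg adjustment over all genes, and 0% of the 10916 genes did. The smallest adjusted p among the members was 0.980, and 9 of 44 members had an unadjusted p under 0.05, as had 542 of all genes tested (4.97%). The median log2 fold change of the tested members was 0.10, beside 0.02 for all genes tested. Of the 44, 24 were above 0 (54.5%, beside 52.5% of all genes tested). When both doubted ethanol arrays were left out, which leaves 2 residual degrees of freedom, 5 genes passed, and Mfap4 was the only member among them.

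With ethanol in both groups as labelled, TGF-beta1 against FGF2 gave 5 genes higher without overlap and 7 lower (backgrounds 12.4% and 19.3%), a median of -0.05 beside -0.04 for all genes, and 0 calls in 10916 genes (0%), with 0 members and 288 of all genes at an unadjusted p under 0.05. That comparison holds 1 doubted array in each group. Without both, 2 genes passed, neither of them a member.

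The second comparison asked what ethanol did in each growth factor. Within FGF2, 34 of 44 members had a log2 fold change above 0 (77.3%, beside 55.5% of all genes tested) with a median of 0.38 beside 0.05. The arrays did not overlap for 13 higher and 2 lower members (backgrounds 19.3% and 12.8%), and 0% of genes passed the test, with 5 of 44 members and 906 of all genes at an unadjusted p under 0.05. Within TGF-beta1, 26 of 44 were above 0 (59.1%, beside 49.2% of all genes tested) with a median of 0.14 beside -0.01. Without overlap 11 were higher and 6 lower (backgrounds 22.2% and 25.7%). There 130 genes passed (0.0733% higher and 1.12% lower) and 0 of 44 members, with 6 members at an unadjusted p under 0.05 against 1035 of all genes. Averaged over both growth factors, 31 of 44 were above 0 (70.5%, beside 54.0% of all genes tested) with a median of 0.22 beside 0.03. Col3a1, which fell under the filter when either ethanol group was left out, is counted among them. Of all genes 0.183% rose and 1.8% fell in that average, and of the members 1 rose, Col27a1, and 0 fell. All 4 ethanol arrays lay above all 4 others for 2 members, Col27a1 and Adamts4 (background 2.98%), and all below for 0 (background 4.45%). The difference between the ethanol effects in the 2 growth factors, tested as an interaction, passed for 0% of genes, with a smallest member adjusted p of 0.831, 4 of 44 members and 484 of all genes at an unadjusted p under 0.05. Without both doubted arrays 0 of 43 members passed in any ethanol comparison, and 15 members changed the sign of their difference within FGF2, 6 within TGF-beta1 and 3 in the average (Adamts20, Col9a3 and Mmp16). Then the median of the members was 0.18 within FGF2, 0.44 within TGF-beta1 and 0.37 in the average. For all genes tested these medians were 0.05, -0.0009 and 0.025.

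**Figure D2:**
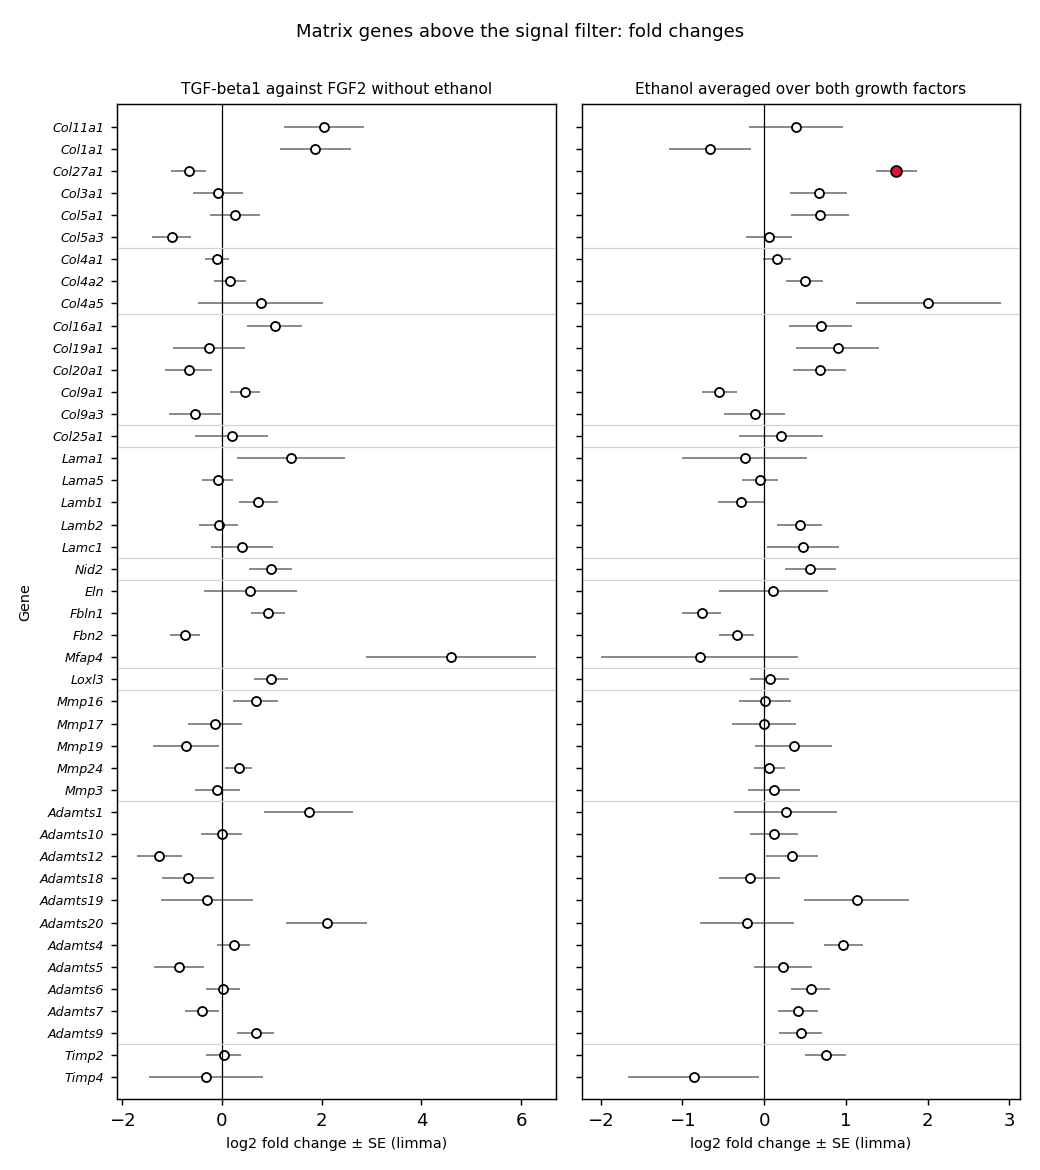
Log2 fold change with its SE (limma, horizontal axes) of the 44 matrix genes above the filter (vertical axis, grouped by role), for TGF-beta1 against FGF2 without ethanol on the left and for ethanol averaged over both growth factors on the right. Only Col27a1 in the ethanol average, the filled red point at 1.62, passed an adjusted p of 0.05, and the widest bar belongs to Mfap4.

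Fibrillar collagens held the single member that passed a test in the full set of arrays. Col27a1, at chr4:63214009-63334991 of GRCm38.p6, encodes the alpha chain of type XXVII collagen, which is best known from cartilage. Its signal was 291 and 226 in FGF2, 739 and 799 in Ethanol and FGF2, 124 and 188 in TGF-beta1 and 780.1 and 412 in Ethanol and TGF-beta1. Every ethanol array was above every array without ethanol, and the doubted arrays lay among the other ethanol arrays. Group means were 259 ± 45.9 and 769 ± 42.3 in FGF2 without and with ethanol, and 156 ± 44.7 and 596 ± 260.2 in TGF-beta1 (SD, n = 2). The log2 fold change was 1.50 ± 0.36 within FGF2 (adjusted p 0.197), 1.74 ± 0.36 within TGF-beta1 (adjusted p 0.0644) and 1.62 ± 0.25 in the average, where the adjusted p of 0.0120 passed. Leaving out any single array gave 1.40 to 1.84 with adjusted p from 0.00828 to 0.0737. It passed in 6 of 8 such fits and missed without Ethanol and FGF2 replicate 2 (adjusted p 0.0524) and without TGF-beta1 replicate 1 (0.0737). Without both doubted arrays the value was 1.43 with an adjusted p of 0.138. A second probe set for Col27a1 read 83.5 and 100 in FGF2, 454 and 217 in Ethanol and FGF2, 48.1 and 198 in TGF-beta1, and 154 and 143 in Ethanol and TGF-beta1. On that probe set the ethanol arrays were higher in FGF2 and overlapped the others in TGF-beta1, with a log2 fold change of 1.00 in the average. Fibroblast and leptomeningeal markers also had a higher summed signal on the ethanol arrays (2192 to 2600 against 1690 to 1907), and among neuronal markers Celf4, an RNA-binding protein of neurons, rose with ethanol by 2.76 ± 0.44 on the log2 scale (adjusted p 0.0130). Celf4 missed the threshold when TGF-beta1 replicate 1 (adjusted p 0.0616), the doubted TGF-beta1 array (0.0568) or Ethanol and FGF2 replicate 2 (0.0670) was left out, and when both doubted arrays were (0.164). Their part in the Col27a1 difference was not tested. Without ethanol, Col27a1 was lower in TGF-beta1 with no overlap, at -0.67 ± 0.36 (adjusted p 0.980).

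Col11a1 and Col1a1 were higher in TGF-beta1 than in FGF2 without ethanol. Col11a1 (chr3:114030479-114220756), a chain of the thin type XI fibrils that help set fibril diameter, read 398 and 218 in FGF2 against 1192 and 1407 in TGF-beta1. In Ethanol and FGF2 it read 1293 and 368, and in Ethanol and TGF-beta1 377 and 2507. The TGF-beta1 arrays were each above the FGF2 arrays, while each ethanol group held a high and a low array. The log2 fold change of TGF-beta1 over FGF2 was 2.05 ± 0.81 (adjusted p 0.980), and 2.05 ± 0.32 without both doubted arrays (adjusted p 0.155). Its second probe set gave 1.76 and had the same high and low arrays. Col1a1 (chr11:94936224-94953042), the major chain of type I collagen, read 296 and 188 in FGF2, 432 and 157 in Ethanol and FGF2, 1068 and 809.6 in TGF-beta1 and 128 and 754 in Ethanol and TGF-beta1. Both TGF-beta1 arrays were the highest of the 8, and Ethanol and TGF-beta1 replicate 1 was the lowest. The growth factor difference was 1.87 ± 0.71 (adjusted p 0.980), or 1.87 ± 0.32 with an adjusted p of 0.207 without both doubted arrays, and the second probe set gave 0.96.

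The other fibrillar collagens differed less. Col5a3, a type V collagen chain, read 100.3 and 186 in FGF2, 109 and 112 in Ethanol and FGF2, 52.4 and 60.7 in TGF-beta1 and 75.9 and 86.0 in Ethanol and TGF-beta1. It was lower in TGF-beta1 than in FGF2 both without and with ethanol, with no overlap between growth factors over all 8 arrays, and the difference without ethanol was -1.01 ± 0.40 (adjusted p 0.980). Col5a1 encodes the chain common to type V fibrils. On the probe set used it was highest on Ethanol and FGF2 replicate 1 at 403 and Ethanol and TGF-beta1 replicate 2 at 395. The other 6 arrays lay between 113 and 185. Col3a1, of type III collagen, stayed between 27.4 and 117 on all arrays. Their ethanol averages were 0.68 ± 0.35 (adjusted p 0.542) and 0.67 ± 0.35 (adjusted p 0.553), and that of Col5a1 was 0.75 without both doubted arrays. A dimmer Col5a1 probe set gave -0.06, with TGF-beta1 replicate 2 (144) above Ethanol and FGF2 replicate 1 (134). Its dimmest gave 0.88 and was highest on the same arrays as the probe set used. Col3a1 fell under the filter when either ethanol group was left out, so the filter favoured a positive ethanol value for it.

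Promoter sequences are shown to set side by side the bases upstream of genes with different array patterns. They come from the member that rose with ethanol and from a pair at least 2-fold higher in TGF-beta1 than in FGF2 without ethanol. They are the 250 bases before the transcript start in RefSeq on GRCm38.p6, written 5′ to 3′ along the gene, with matches to searched motifs in capitals. Col27a1 lies at chr4:63215162-63215411 on the plus strand, a start within the annotated span of the gene. Col11a1 lies at chr3:114030290-114030539 on the plus strand, and this window also ends within the annotated span of its gene. Adamts1 lies at chr16:85803114-85803363 on the minus strand.
Col27a1: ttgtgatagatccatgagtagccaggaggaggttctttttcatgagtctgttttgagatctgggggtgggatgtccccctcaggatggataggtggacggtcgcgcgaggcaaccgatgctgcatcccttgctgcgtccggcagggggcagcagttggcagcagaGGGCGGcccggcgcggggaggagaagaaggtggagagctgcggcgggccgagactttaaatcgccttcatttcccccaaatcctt
Col11a1: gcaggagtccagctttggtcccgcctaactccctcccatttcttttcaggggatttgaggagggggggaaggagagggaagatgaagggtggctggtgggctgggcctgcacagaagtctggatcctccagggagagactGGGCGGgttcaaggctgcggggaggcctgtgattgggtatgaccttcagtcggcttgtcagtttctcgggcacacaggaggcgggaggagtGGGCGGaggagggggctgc
Adamts1: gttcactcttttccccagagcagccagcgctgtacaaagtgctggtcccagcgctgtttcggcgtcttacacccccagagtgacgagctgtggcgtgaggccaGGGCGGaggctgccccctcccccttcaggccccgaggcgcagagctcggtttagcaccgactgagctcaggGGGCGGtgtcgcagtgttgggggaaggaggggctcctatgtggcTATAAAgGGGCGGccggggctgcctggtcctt
The motifs searched on both strands were the TATA box TATAAA, the GC box GGGCGG, the AP-1 element TGANTCA and the Smad element CAGACA, none of which contains another. The GC box began 85 bases before the start of Col27a1, 110 and 19 before that of Col11a1, and 147, 76 and 25 before that of Adamts1, which also had the TATA box 32 bases before its start. No AP-1 or Smad element of these letters stood in these 3 windows. Of the 102 members 66 had an entry in the promoter table, 10 of them more than 1. Each member was counted by 1 entry, for those 10 the one with the lowest start coordinate. The 32851 background promoters are all entries, so a gene can count there more than once. The GC box was present in 35 of 66 members and in 32.7% of 32851 promoters of the same length, and the TATA box in 11 of 66 and 12.4%. The AP-1 element was present in 6 of 66 and 6.75%, and the Smad element in 16 of 66 and 17.1%. Of the 9 members apart by at least 2-fold between growth factors, 6 had an entry, of which 5 held the GC box, 1 the TATA box and 0 either of the other motifs. These matches describe letters and not bound sites.

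Basement membrane collagens showed no test past the threshold. Col4a1 (chr8:11198423-11312889) and Col4a2 (chr8:11312805-11449287) lie head to head on chromosome 8 and together form the main type IV network. Col4a1 was even across the arrays, from 605 to 818, with differences of -0.09 ± 0.25 between growth factors and 0.16 ± 0.17 for ethanol. Col4a2 read 459 and 247 in FGF2 and 597 and 635 in Ethanol and FGF2, 339 and 426 in TGF-beta1 and 446 and 412 in Ethanol and TGF-beta1. Both ethanol arrays were higher in FGF2, at 0.83 ± 0.32 (adjusted p 0.545), or 0.87 ± 0.44 without both doubted arrays, and the arrays overlapped in TGF-beta1. Col4a5 (chrX:141475370-141689236), an X-linked type IV chain, read 104 and 2.35 in FGF2, 577 and 73.4 in Ethanol and FGF2, 175 and 25.8 in TGF-beta1 and 105 and 1118 in Ethanol and TGF-beta1. Only Ethanol and FGF2 replicate 1 and Ethanol and TGF-beta1 replicate 2 were high, and the other ethanol arrays overlapped the arrays without ethanol. The ethanol average was 2.01 ± 0.89 (adjusted p 0.462), or 2.14 ± 0.82 without both doubted arrays (adjusted p 0.441), and a second probe set was highest on the same 2 arrays.

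Laminins are trimers of an alpha, a beta and a gamma chain, and the tested chains did not vary in parallel. Lama1 (chr17:67697127-67822645), the alpha chain of the earliest embryonic laminin, read 33.3 and 95.1 in FGF2, 308 and 3.73 in Ethanol and FGF2, 196 and 186 in TGF-beta1 and 39.1 and 258 in Ethanol and TGF-beta1. Both TGF-beta1 arrays were above both FGF2 arrays, and each ethanol group held an array above both TGF-beta1 arrays and 1 below the higher FGF2 array. Its growth factor difference was 1.38 ± 1.08 (adjusted p 0.982). Lamb1 (chr12:31265146-31329644), the common beta chain, read 784 and 679 in FGF2, 985 and 684 in Ethanol and FGF2, 1249.6 and 1206 in TGF-beta1 and 459.8 and 1163 in Ethanol and TGF-beta1. It was higher in both TGF-beta1 arrays than on any other array, at 0.73 ± 0.40 over FGF2 (adjusted p 0.980). Lamc1 (chr1:153218922-153332786) read 1202 and 985 in FGF2, 2984 and 820.3 in Ethanol and FGF2, 1185 and 1748 in TGF-beta1 and 1128 and 3344 in Ethanol and TGF-beta1. As for Col4a5, Ethanol and FGF2 replicate 1 and Ethanol and TGF-beta1 replicate 2 stood above the other 6 arrays, also on its second probe set (2096 and 1569 against 287 to 453). The Lamc1 differences were 0.40 ± 0.62 for the growth factors and 0.47 ± 0.44 for ethanol, neither past the test (adjusted p 0.992 and 0.793), and the ethanol value was 0.40 ± 0.22 without both doubted arrays.

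Lama5, an alpha chain of many basement membranes, stayed between 333 and 618. Lamb2, a beta chain found at synapses and in kidney, was highest at 1061 on Ethanol and FGF2 replicate 1 and lay between 349.5 and 542 elsewhere. Their differences between growth factors, -0.08 ± 0.31 and -0.06 ± 0.39, were smaller than their SE. Nid2 (chr14:19751257-19811787) read 93.6 and 52.2 in FGF2, 157 and 93.7 in Ethanol and FGF2, 149 and 176 in TGF-beta1 and 169.9 and 334 in Ethanol and TGF-beta1. Both FGF2 arrays were below both TGF-beta1 arrays. Both Ethanol and FGF2 arrays lay above the FGF2 arrays, replicate 2 only barely, and Ethanol and TGF-beta1 replicate 1 lay between the TGF-beta1 arrays. The differences were 0.98 ± 0.44 (adjusted p 0.980) and 0.56 ± 0.31 for ethanol (adjusted p 0.568), the latter 0.63 ± 0.35 without both doubted arrays.

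Elastic fibre proteins held the largest growth factor difference of all tested members. Mfap4 (chr11:61485431-61488708), a microfibril-associated glycoprotein, read 98.1 and 69.7 in FGF2 against 3659 and 1754 in TGF-beta1. In Ethanol and FGF2 it read 1149 and 9.20, and in Ethanol and TGF-beta1 65.2 and 2437. The 4 high arrays were both TGF-beta1 arrays and the 2 ethanol arrays with high Fn1, and no array lay between 98.1 and 1149. The log2 fold change of TGF-beta1 over FGF2 was 4.59 ± 1.70 on the log2(signal + 23.66) scale, with an adjusted p of 0.980. Without both doubted arrays the value stayed at 4.59 with a smaller SE. Those arrays were doubted on Fn1 and on 9 members, Mfap4 among them, so that fit gives no separate support for Mfap4. In the ethanol average Mfap4 was -0.79 ± 1.21 (adjusted p 0.889), smaller than its SE, and -0.88 ± 0.35 without those arrays (adjusted p 0.461).

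Fbln1 (chr15:85205949-85286294), fibulin 1, which binds fibronectin and basement membrane proteins, read 399.9 and 350.1 in FGF2, 484 and 265 in Ethanol and FGF2, 895 and 594 in TGF-beta1 and 251 and 244 in Ethanol and TGF-beta1. On this probe set it was highest in TGF-beta1 without ethanol. Both Ethanol and TGF-beta1 arrays lay below all the others there, whatever their Fn1 signal. The ethanol difference within TGF-beta1 was -1.48 ± 0.34 (adjusted p 0.104), within FGF2 -0.06 ± 0.34, and the interaction of -1.42 ± 0.48 did not pass (adjusted p 0.831). Without both doubted arrays the value within TGF-beta1 was -1.50 ± 0.37 (adjusted p 0.326) and the interaction -1.03 ± 0.52. Of its other 2 probe sets, 1 gave -0.74 in the ethanol average and the dimmest gave 0.67, beside -0.77 ± 0.24 for the one used. On the brighter of those 2, Ethanol and TGF-beta1 read 170 and 171. These lay above FGF2 replicate 2 (169) and Ethanol and FGF2 replicate 2 (144). On the dimmest, Ethanol and TGF-beta1 replicate 1 was the highest array at 133. Fbn2, the fibrillin of embryonic microfibrils, read 1275 and 1554 in FGF2, 766 and 1056 in Ethanol and FGF2, 993 and 696 in TGF-beta1 and 974 and 671 in Ethanol and TGF-beta1. On the probe set used, FGF2 was the highest group for Fbn2, with no overlap with any other. The growth factor difference there was -0.74 ± 0.30 (adjusted p 0.980). A dimmer Fbn2 probe set read 87.2 and 203 in FGF2 against 91.7 and 177 in TGF-beta1, with overlap, at -0.06. Eln, elastin itself, ranged from 38.1 to 484 and was highest on Ethanol and TGF-beta1 replicate 2 and Ethanol and FGF2 replicate 1, with 0.57 ± 0.94 between growth factors. Loxl3 was the only measured lysyl oxidase above the filter. It read 172 and 98.0 in FGF2 and 224 and 202 in Ethanol and FGF2. In TGF-beta1 it read 282 and 284, and in Ethanol and TGF-beta1 178 and 215. The TGF-beta1 arrays were the highest of the 8 for this cross-linking enzyme, at 0.99 ± 0.34 over FGF2 (adjusted p 0.980).

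**Figure D3:**
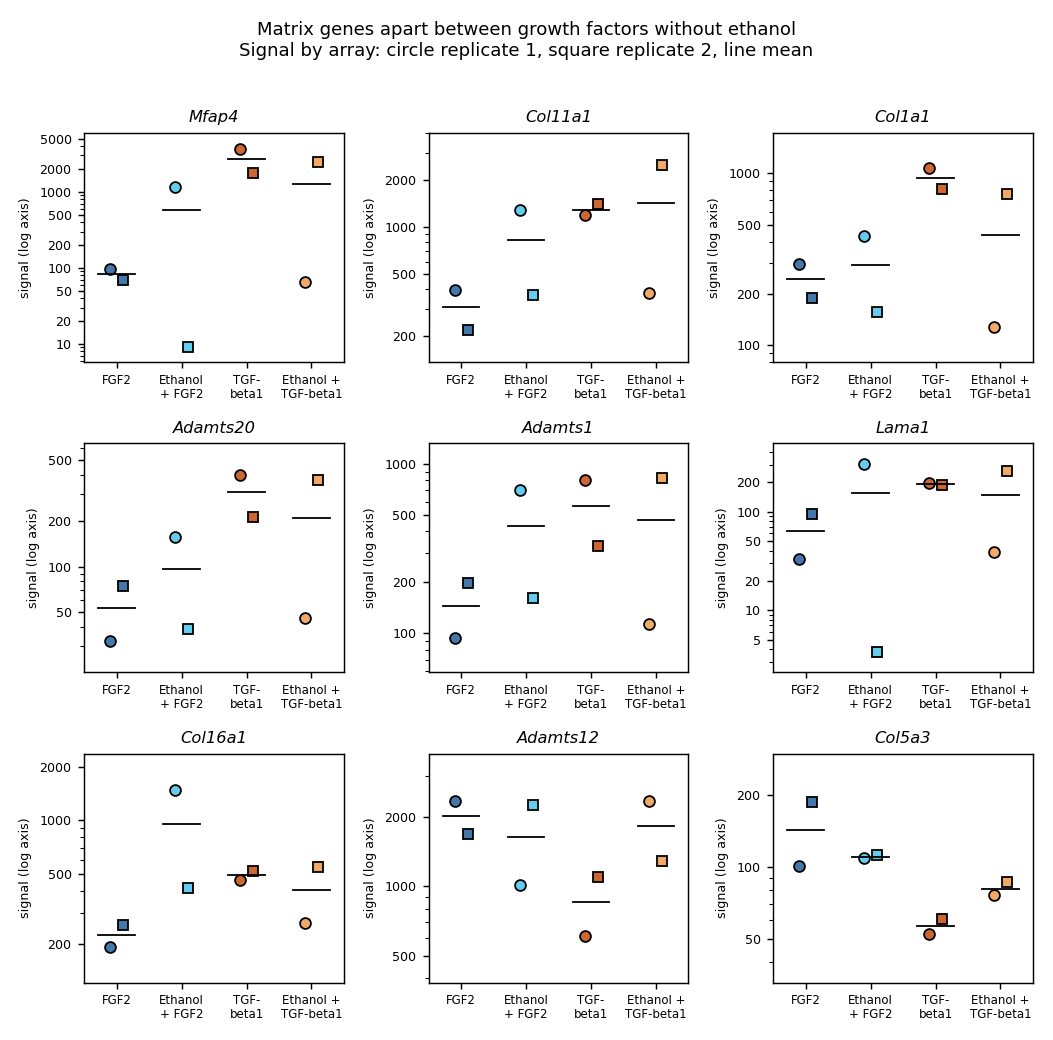
Signal on each array (log vertical axis, arbitrary units) in the 4 groups (horizontal axis) of the 9 tested matrix genes that differed at least 2-fold between FGF2 and TGF-beta1 without ethanol and did not overlap, with circles for replicate 1, squares for replicate 2 and lines for group means. In the panels of Mfap4, Col11a1, Adamts1 and Adamts20, the circle of Ethanol and FGF2 and the square of Ethanol and TGF-beta1 lie high and the other symbol of each ethanol group lies low.

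Of the fibril-associated collagens, Col16a1 (chr4:130047817-130099277) read 194 and 255 in FGF2, 1489 and 417 in Ethanol and FGF2, 459.8 and 518 in TGF-beta1 and 264 and 542 in Ethanol and TGF-beta1. It was higher in TGF-beta1 than in FGF2 at 1.06 ± 0.55 (adjusted p 0.980), and both ethanol arrays exceeded both others in FGF2 at 1.73 ± 0.55 (adjusted p 0.410), though the higher of them is a doubted array and the value was 0.84 ± 0.35 without both (adjusted p 0.898). Col19a1 and Col20a1, further members of this class, had ethanol averages of 0.90 ± 0.51 and 0.68 ± 0.33, with adjusted p of 0.587 and 0.510, and 1.19 ± 0.68 and 0.44 ± 0.44 without both doubted arrays. Signals of Col19a1 ran from 25.4 to 203 and those of Col20a1 from 52.8 to 218, and on both the lowest array was TGF-beta1 replicate 1.

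The ADAMTS enzymes are secreted proteases, several of which cut proteoglycans. Adamts4 (chr1:171250129-171262267), an aggrecanase that also cuts the brain proteoglycans brevican and versican, read 9063 and 4413 in FGF2, 14478 and 14142 in Ethanol and FGF2, 6840.0 and 8111 in TGF-beta1 and 10946 and 14588 in Ethanol and TGF-beta1. All 4 ethanol arrays were above all 4 arrays without it, the doubted arrays included. Its ethanol average of 0.97 ± 0.24 missed the threshold (adjusted p 0.0966), and passed in 1 of the 8 fits that left out an array, the one without FGF2 replicate 1 (1.23, adjusted p 0.0193). Without both doubted arrays it was 1.06 ± 0.32 (adjusted p 0.305). A much dimmer second probe set gave 0.47. Adamts9, a versican-cleaving protease, read 4727 and 2024 in FGF2, 6879 and 4727 in Ethanol and FGF2, 5193 and 4766 in TGF-beta1 and 4824 and 5295 in Ethanol and TGF-beta1. FGF2 replicate 2 was its low array, and the other 7 lay between 4727 and 6879, with an ethanol average of 0.45 ± 0.26 (adjusted p 0.603), or 0.35 ± 0.34 without both doubted arrays.

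Adamts1 (chr16:85793827-85803113), which cuts versican and aggrecan, read 94.1 and 197 in FGF2, 698 and 161 in Ethanol and FGF2, 800.2 and 328 in TGF-beta1 and 114 and 826 in Ethanol and TGF-beta1. Adamts20 (chr15:94268314-94432074), known for a part in melanoblast development, read 32.3 and 74.2 in FGF2, 155 and 38.7 in Ethanol and FGF2, 402 and 213 in TGF-beta1 and 46.3 and 372 in Ethanol and TGF-beta1. Both were higher in TGF-beta1 without overlap and had a high and a low array in each ethanol group, at 1.74 ± 0.89 and 2.10 ± 0.82 over FGF2 (adjusted p 0.980 for each). Adamts12 (chr15:11064773-11349232), a protease known from cartilage turnover, ran the other way, with 2345 and 1689 in FGF2 against 612 and 1095 in TGF-beta1, then 1013 and 2256 in Ethanol and FGF2 and 2348 and 1294 in Ethanol and TGF-beta1. Its low ethanol arrays were those with high Fn1, and the growth factor difference was -1.26 ± 0.45 (adjusted p 0.980). Adamts5, an aggrecanase like Adamts4, ranged from 74.6 to 337, with -0.85 ± 0.50 between growth factors (adjusted p 0.982). Its dimmer probe sets gave -0.21, 0.17 and 0.28, so they did not share a direction. Adamts19 ranged from 30.8 to 377, with 1 low array in each group without ethanol and no low array with it, and its ethanol average was 1.13 ± 0.65 (adjusted p 0.596), or 1.11 ± 0.94 without both doubted arrays.

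The MMPs gave no call. Mmp16, a membrane-anchored MMP, ranged from 112 to 299, with 0.68 ± 0.45 between growth factors and 0.01 ± 0.32 for ethanol. Its dimmer probe sets gave -0.21, 0.34 and 0.11 between growth factors, so they did not share a direction. For ethanol they gave 0.42, 0.13 and 0.37. The other 4 tested MMPs, Mmp3, Mmp17, Mmp19 and Mmp24, had growth factor differences from -0.72 to 0.34 and ethanol averages of at most 0.36 in size, none past the test. On the probe sets used, the gelatinases Mmp2 and Mmp9 and the membrane protease Mmp14 stayed under 100 on every array. A dimmer Mmp14 probe set reached 105 on TGF-beta1 replicate 1 and 104 on Ethanol and TGF-beta1 replicate 1.

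Of the inhibitors, Timp2 and Timp4 passed the filter. Timp2 (chr11:118301061-118355411), an MMP inhibitor that also takes part in the activation of Mmp2, read 2298 and 2640.0 in FGF2, 5470.2 and 3376 in Ethanol and FGF2, 2063 and 3101 in TGF-beta1 and 3079.6 and 5622 in Ethanol and TGF-beta1. Both ethanol arrays were higher in FGF2, and Ethanol and TGF-beta1 replicate 1 lay just under the higher TGF-beta1 array. The ethanol average was 0.76 ± 0.25 (adjusted p 0.276), or 0.80 ± 0.22 without both doubted arrays (adjusted p 0.265), and all 6 of its probe sets gave a positive value, from 0.44 to 0.89. Timp4 (chr6:115244444-115252205), an inhibitor prominent in brain and heart, read 2185 and 8694 in FGF2, 1006 and 6751 in Ethanol and FGF2, 5034 and 2429 in TGF-beta1 and 5279 and 571 in Ethanol and TGF-beta1. Within every group its arrays differed by more than 2-fold, and its low ethanol arrays were those on which Fn1, Lamc1 and Col4a5 were high. A second Timp4 probe set had the same order of arrays within each group. The Timp4 differences were -0.32 ± 1.14 between growth factors and -0.86 ± 0.80 for ethanol (adjusted p 0.996 and 0.795), and the ethanol value was -0.97 ± 0.57 without both doubted arrays.

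**Figure D4:**
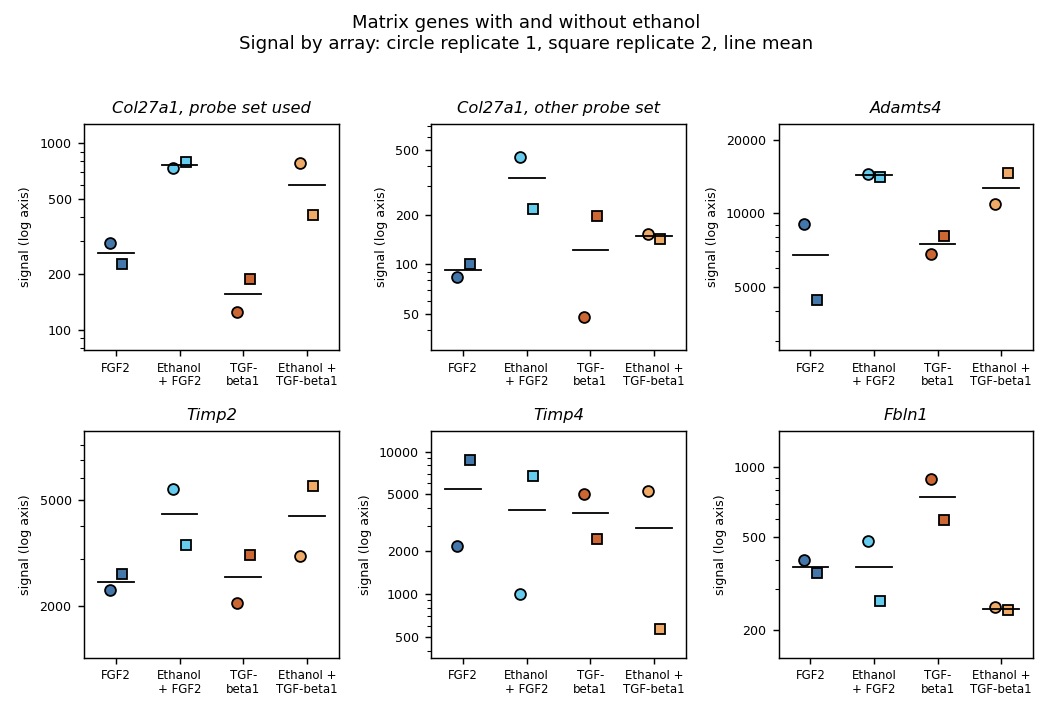
Signal on each array (log vertical axis, arbitrary units) in the 4 groups (horizontal axis) for both probe sets of Col27a1 and for Adamts4, Timp2, Timp4 and Fbln1, with circles for replicate 1, squares for replicate 2 and lines for group means. The probe set used for Col27a1 and that of Adamts4 are higher on all 4 ethanol arrays. The probe set used for Fbln1 is lowest on both Ethanol and TGF-beta1 arrays.

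Other genes of matrix assembly were taken from hand-written lists. Of 20 measured genes of collagen folding and processing, 16 were tested and 0 passed in any comparison, with a median of 0.35 for TGF-beta1 over FGF2 without ethanol and 0.23 for the ethanol average. In list order, P4ha1 (a prolyl hydroxylase subunit) was 0.46 and 0.52 in these comparisons, P4hb (its partner and a disulphide isomerase) 0.13 and 0.06, Plod1 (a lysyl hydroxylase) 0.97 and -0.14, and Plod2 (another) 1.33 and 0.53. Of 15 measured collagen and laminin receptors, 8 were tested, with medians of 0.03 and 0.01, and 1 passed. Mrc2, an endocytic collagen receptor, read 113 and 189 in FGF2, 131 and 86.2 in Ethanol and FGF2, 488 and 388 in TGF-beta1, and 95.5 and 94.5 in Ethanol and TGF-beta1. It fell with ethanol within TGF-beta1, where both ethanol arrays were low whatever their Fn1 signal, by 1.95 ± 0.37 on the log2 scale (adjusted p 0.0479). Leaving out single arrays gave Mrc2 an adjusted p of 0.0338 to 0.486, past the test only without an FGF2 array, and leaving out both doubted arrays gave 0.316. With the mean of all probe sets of a gene the Mrc2 value was -1.07 (adjusted p 0.420), and the call was also lost without the signal filter (0.0765), with a constant of 8 (0.0538) and with the replicate block (0.0972), so it depended on these choices. The integrin subunits Itga1, Itga6 and Itgb1 were at 0.70, -0.02 and 0.08 between growth factors, and the collagen receptor Ddr1 at -0.25.

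Of 30 measured other matrix glycoproteins and proteoglycans, 21 were tested and 0 passed, with medians of 0.58 between growth factors and 0.25 for ethanol. Fn1 was at 4.54 between growth factors, Sparc (a collagen-binding glycoprotein) at 0.63, Sparcl1 (its relative) at -0.53 and Tnc (tenascin C) at 1.23. Of 21 measured regulators of matrix proteases outside these families, 14 were tested and 0 passed, with medians of 0.24 and 0.33. Plat (tissue plasminogen activator) was at 0.25 and 0.52, Reck (a membrane inhibitor of MMPs) at -0.35 and 0.54, Adam9 at 0.46 and 0.35, and Adam10 at -0.23 and 0.24. The 2 growth factor comparisons and the ethanol comparisons share arrays with each other, so these values are not independent of one another.

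Markers of cell types were read on the same arrays, because in bulk RNA fewer cells of a type and less RNA per cell cannot be told apart. Neural stem cell markers were measured for 8 of 8 genes and 7 passed the filter, with a summed signal of 56036 to 110055. Of 9 fibroblast and leptomeningeal markers, 5 passed, while Lum, the gene of lumican, stayed at 16.1 to 81.6. Neuronal markers had 4 of 5 above the filter and summed to 5425 to 11424 without ethanol and 9184 to 14355 with it. Without ethanol they summed to 8219 and 11424 in FGF2 against 5425 and 6896 in TGF-beta1, and all 4 tested neuronal markers were below 0 for TGF-beta1 over FGF2 (median -1.25), with 0 past the test. Among them Dcx, a microtubule protein of young neurons, was at -2.30 (adjusted p 0.980, unadjusted p 0.00161), Celf4 at -1.36 and Tubb3, a neuronal tubulin, at -1.14. In TGF-beta1 both Celf4 and Dcx rose with ethanol (log2 3.41 and 2.70, adjusted p 0.0403 and 0.0488). Both calls were lost with a constant of 8 (0.0507 for each) and with the mean of all probe sets (0.0501 and 0.0652). They were also lost with no trend (0.0601 and 0.0715) and with the replicate block (0.0651 and 0.101). Dcx missed with a constant of 64 too (0.0560). Both held without the signal filter and with quantile normalization. Without both doubted arrays the values within TGF-beta1 were 2.97 and 2.08. When single arrays were left out, Celf4 had an adjusted p of 0.0204 to 0.390 there, past the test only without an FGF2 array, and Dcx 0.0327 to 0.475, past it only without an FGF2 array or without Ethanol and TGF-beta1 replicate 2. Astrocyte markers had 5 of 5 above the filter and summed to 20330 to 37883. Within that sum Gfap, the intermediate filament of astrocytes, read 534 and 61.9 in FGF2, 6058 and 1281 in Ethanol and FGF2, 2102 and 2461 in TGF-beta1, and 668 and 8284 in Ethanol and TGF-beta1. Its highest arrays were those on which Fn1 was highest, and its differences of 3.40 ± 1.20 for TGF-beta1 over FGF2 without ethanol (adjusted p 0.980) and 3.69 ± 1.20 for ethanol within FGF2 (adjusted p 0.428) did not pass. Of the other markers, oligodendrocyte markers had 1 of 4 and summed to 2850 to 6678. Smooth muscle markers had 2 of 4 above it and summed to 38.4 and 232 in FGF2, 541 and 51.5 in Ethanol and FGF2, 85.8 and 333 in TGF-beta1, and 97.3 and 1265 in Ethanol and TGF-beta1. Their highest arrays were those on which Lamc1, Col4a5 and Col5a1 were highest on the probe sets used. All 6 endothelial markers stayed under 100 on every array, and 4 of 5 microglial markers did. The part of these marker levels in the results for the matrix genes was not tested.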

How the data were processed

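NS5 cells were profiled on 8 Affymetrix mouse arrays, 2 in each of 4 groups. The deposited values are linear signal intensities, 1 for each of 45101 probe sets, made by the authors with MAS5 and GCOS per the submitters' processing notes, with versions not given in the sources used here. The 2% trimmed mean was 500 on every array, so arrays had been scaled to 1 target, and no detection calls came with them. Of the probe sets, 64 were controls, 34945 others had 1 gene symbol, 932 had several and 9211 had none. Only probe sets with 1 symbol entered the gene table. The 102 members had 198 probe sets, and 63 had more than 1. With the highest mean log2(signal + 23.66) as the choice, 3 members use another probe set than with log2 of the signal alone. Positions and promoters came from RefSeq tables (GRCm38.p6), matched for 102 and 66 members.

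The 25th percentile of all signals, 23.66, was added before taking log2. The filter stood at the 40th percentile of the genes' means on that scale (6.402). Tests used limma 3.58.1 under R 4.3.3 (4 group means, moderation with a trend, 4 residual and 4.929 prior degrees of freedom). P-values were two-sided and Benjamini-Hochberg adjusted over 10916 genes in each comparison, with a threshold of 0.05. SE are moderated. Means and SD of groups are of linear signals. Scripts were tested on simulated data. The number of arrays limits the precision.

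The members, lists and markers were chosen with earlier results of these data known. Named were members past the test, the 12 with the largest fold change between growth factors and in the ethanol average, and fixed anchors of each role, and of the pathway lists genes past the test and up to 4 others in list order; other members named beside the filter, in counts of 5 or fewer or for a high signal under the filter were chosen after their values were seen. Alternatives covered the constant, the filter, quantile normalization, probe sets, the trend, a replicate block and leaving out arrays.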

Additional observations from a re-analysis of the deposited data

How the results depend on the processing

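The count of members past the test was 0 in TGF-beta1 against FGF2 without ethanol in all other settings run, and 1 (Mfap4) without both ethanol arrays labelled replicate 1. For ethanol averaged over both growth factors it was 1 (Col27a1), ranged from 0 to 2 when arrays were left out, and stayed at 1 in the other settings run. It was 2 without FGF2 replicate 1, where Adamts4 joined, and 0 without Ethanol and FGF2 replicate 2, without TGF-beta1 replicate 1, and without both replicate 1 ethanol arrays. In the remaining comparisons the count was 0 under every setting run. With all arrays kept, Col27a1 in the ethanol average ranged from 1.31 with the mean of all probe sets (adjusted p 0.0429) to 1.70 with a constant of 8 (adjusted p 0.0123). With the replicate number as a block, Col27a1 kept 1.62 with an adjusted p of 0.0327, the count of members past the test was 1 in the ethanol average and 0 elsewhere, and all genes past the test numbered 0 in place of 130 within TGF-beta1 and 179 in place of 217 in the average. Over all genes, the count within FGF2 was 29 without a filter and with quantile normalization and 3 with the stricter filter, in place of 0. Within TGF-beta1 it was 75 with the stricter filter, 85 with the mean of all probe sets and 78 with no trend, in place of 130, and in the average 119 with the stricter filter, in place of 217. When arrays were left out, including both replicate 1 ethanol arrays, these counts ran from 0 to 76 within FGF2, from 0 to 162 within TGF-beta1 and from 0 to 230 in the average. The labels state no pairing. Correlations of replicate differences ran from -0.44, between Ethanol and FGF2 and Ethanol and TGF-beta1, to 0.47, between FGF2 and TGF-beta1. So the replicates of FGF2 and TGF-beta1 shared part of their difference over the genes tested, and the source of that was not tested. For the growth factors without ethanol, 27 of 348 values changed sign when an array was left out (17 of 44 members) and 10 of 322 in the other settings. In the ethanol average these were 41 of 348 (19 members) and 5 of 322. Leaving out an ethanol array cannot change a growth factor difference without ethanol. Another filter, no trend and the replicate block cannot change a fold change in either comparison. The totals include those fixed values, so these shares understate how often a setting that could change a sign did so. The cause of the sign changes was not tested. With no detection calls, how far a signal stood above background is unknown.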

Other observations

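Of the 58 members under the signal filter, 8 exceeded a signal of 100 on at least 1 array. Adamts8, an ADAMTS protease, read 4.57 and 5.66 in FGF2, 159 and 20.4 in Ethanol and FGF2, 35.2 and 66.1 in TGF-beta1, and 7.41 and 516 in Ethanol and TGF-beta1. It was highest on the 2 ethanol arrays on which Fn1, Lamc1 and Col4a5 were high, and was not tested. The highest signals of the others were 173 for Timp3, an inhibitor bound to the matrix, 134 for Loxl1, a lysyl oxidase of elastic fibres, 123 for Adamts3, a procollagen protease, 120 for Fbln2, 118 for Mfap2, 107 for Col6a1 and 105 for Col15a1. For Timp3 that array was TGF-beta1 replicate 2, for Loxl1, Mfap2 and Col6a1 it was Ethanol and TGF-beta1 replicate 2, for Col15a1 Ethanol and FGF2 replicate 1, and for Fbln2 and Adamts3 an FGF2 array.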
